A study of Mus musculus with 4 samples.

Results

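The genes described here encode 10 Tudor domain proteins of the male germ line, *Tdrd1*, *Tdrd3*, *Tdrd5*, *Tdrd6*, *Tdrd7*, *Tdrd9*, *Tdrd12*, *Tdrkh*, *Rnf17* and *Stk31*, chosen by name from the 24411 genes listed for each library, and all 10 were found. RNA was sequenced from testis cells of mice at postnatal day 18, sorted by GFP as male germ cells. The *Rec8-3FH-GFP* KI allele makes GFP along with the meiotic cohesin REC8. The 2 controls were *Zfp541*+/-, with 1 testis heterozygous and 1 testis homozygous for the KI allele, and the other 2 libraries, labelled *Zfp541* KO, came from individual testes homozygous for it. The KO allele lacks Exon1 to Exon13 of *Zfp541*, which encodes a zinc finger protein of spermatocytes. The labels do not say which control was heterozygous for the KI allele, and KI dosage cannot be told apart from other differences between the controls. The labels give a mixed C57BL/6 and CBA strain, and the methods of the study give C57BL/6. Nothing states whether the testes of a group came from separate animals, and the p-values measure only the spread between these libraries.

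Many Tudor domains bind methylated arginines. In the germ line their best known ligands are the PIWI proteins, which carry piRNAs, the small RNAs that silence transposons. PIWI proteins, Tudor proteins and RNA helicases gather in germ granules, first in the intermitochondrial cement and processing-body-like granules of fetal germ cells and spermatocytes and later in the chromatoid body of spermatids. TDRD1, TDRD9, TDRD12 and TDRKH act in piRNA production, RNF17 and STK31 are found in meiotic cells, and TDRD5, TDRD6 and TDRD7 build the chromatoid body. TDRD3 is the broadly expressed member, a reader of methylated arginine that partners the topoisomerase TOP3B.

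Promoter sequences from RefSeq (GRCm38.p6) were matched for 8 of the 10 genes, in windows of 300 bases from 250 bases before to 50 bases after each start site, with 14 windows in all. An E-box, CACGTG, which reads the same on both strands, lay in a window of 3 of these 8 genes, *Stk31*, *Tdrd1* and *Tdrd9*, and in 8.09% of the 27025 genes of the whole table. The core of the A-MYB motif, GGCAGTT, was found for 1 gene, *Tdrd7*, against 4.76% of all genes, and GCGGGAA, a motif of E2F factors, for 1 gene, *Tdrd5*, against 5.29%. The full CRE, TGACGTCA, was found for 0 of the 8 genes and for 2.03% of all genes. Both strands were searched. A gene counted if any of its windows matched, and the whole table held 32851 windows. Of the 14 windows of these genes, 12 had a GC content above the median of all windows. The counts were not adjusted for the number of windows or for GC content. These matches describe the letters only, and no binding data were used here.

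The stretches upstream of 4 genes whose libraries did not overlap between the groups are given, the first pair with the E-box in capitals and the second pair without any of the motifs, and each stops at the edge of the RefSeq gene. The *Tdrd9* stretch lies at chr12:111971309-111971487 on the + strand, with E-boxes starting 165 and 95 bases before the start site. The *Stk31* stretch lies at chr6:49395289-49395505 on the + strand. Its E-box starts 55 bases before the start site of its first window and 120 bases before that of its second. The *Tdrkh* stretch lies at chr3:94412994-94413242 on the + strand, and that of *Tdrd12* at chr7:35537785-35537994 on the - strand.
Tdrd9: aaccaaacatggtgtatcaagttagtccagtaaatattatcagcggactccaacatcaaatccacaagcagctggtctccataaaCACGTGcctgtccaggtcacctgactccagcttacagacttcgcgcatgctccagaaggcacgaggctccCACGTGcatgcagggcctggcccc
Stk31: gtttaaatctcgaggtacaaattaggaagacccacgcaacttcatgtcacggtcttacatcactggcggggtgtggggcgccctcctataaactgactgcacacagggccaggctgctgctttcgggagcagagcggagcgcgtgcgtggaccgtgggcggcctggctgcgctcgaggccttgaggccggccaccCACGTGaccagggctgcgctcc
Tdrkh: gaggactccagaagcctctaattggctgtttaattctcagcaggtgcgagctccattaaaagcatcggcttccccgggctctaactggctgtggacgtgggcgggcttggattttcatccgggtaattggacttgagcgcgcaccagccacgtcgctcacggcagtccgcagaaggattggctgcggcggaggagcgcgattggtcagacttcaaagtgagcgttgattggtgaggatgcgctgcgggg
Tdrd12: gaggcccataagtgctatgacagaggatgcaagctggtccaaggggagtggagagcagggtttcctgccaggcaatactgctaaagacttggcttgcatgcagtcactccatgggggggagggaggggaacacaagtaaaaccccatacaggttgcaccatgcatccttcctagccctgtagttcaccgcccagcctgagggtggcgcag

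Levels are TPM, which divide out transcript length and give each library the same sum, so levels of different genes can be set side by side but depth is unknown and no counting error can be given. *Zfp541*, the targeted gene, was at 112 TPM in control 1, 72.2 TPM in control 2, and 136 and 151 TPM in those labelled *Zfp541* KO 1 and 2, with a log2 difference of 0.67 ± 0.28 (SE, adjusted p = 0.371 in limma, 0.0106 without control 1 and 0.0936 without control 2). Its level did not follow the label, TPM per gene does not separate deleted exons from the rest, and each direction given here rests on the labels. *Rec8*, whose locus drives the GFP, was at 7.05 and 27.9 TPM among controls and at 27.7 and 19.4 TPM in those labelled KO. The germ cell helicase gene *Ddx4* was at 397 to 812 TPM in all 4 libraries.

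The 2 controls stood apart from each other. Markers of Leydig cells summed to 3603 TPM in control 1, 19.4 TPM in control 2, and 392 and 606 TPM in those labelled KO, with all 6 markers highest in control 1 and lowest in control 2. Markers of macrophages summed to 2045, 21.6, 1687 and 1251 TPM in the same order, with all 5 highest in control 1 and lowest in control 2. RNA sorted as that of germ cells thus also held Leydig cell and macrophage markers, far less in control 2 than in the other libraries. Pachytene markers summed to 8308 TPM in control 1 and 4636 TPM in control 2 against 2728 and 3734 TPM in those labelled KO, and 10 of 11 listed were highest in control 1. Over all genes tested, control 1 lay above control 2 for 66.0% and above both libraries labelled KO for 36.0%. Both libraries labelled KO lay below both controls for 5 of the 11 pachytene markers (12.1% of all genes tested) and above both for 1 (38.6%). Leptotene and zygotene markers summed to 2452 and 3020 TPM among controls and 4569 and 4717 TPM in those labelled KO, with both latter libraries above both controls for 6 of 11 markers and below both for 0, where 38.6% of all genes tested lay above both and 12.1% below both. The leptotene and zygotene sums rest mostly on *Sycp3* and *Hormad1*. In controls 1 and 2 and libraries KO 1 and 2, *Sycp3* was at 1108, 1263, 2093 and 2196 TPM. *Hormad1* was at 531, 728, 1145 and 1232 TPM in the same order. The paper stains SYCP3 in pachytene spermatocytes as well, so these sums are not particular to leptotene and zygotene. In bulk RNA, fewer cells of a type and less RNA per cell cannot be told apart.

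The remaining marker lists had other orders. Spermatogonia markers summed to 260 and 798 TPM among controls and 464 and 388 TPM in those labelled KO, Sertoli cell markers to 141, 214, 239 and 190 TPM, and peritubular myoid markers to 4.84, 11, 12.9 and 8.22 TPM. Round spermatid markers summed to 24.7, 17.6, 32.6 and 32.4 TPM, with *Prm1* at 0 in all libraries but control 1, and *Acrv1*, *Prm2*, *Tnp1* and *Tnp2* also at 0 in control 2. The order of this sum rests on *Spaca1*, at 7.34, 13.9, 27.0 and 26.6 TPM, whereas control 1 was highest for 4 of the 8 markers. Because of the gap between the controls, each comparison of the Tudor genes is also given without each control.

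**Figure D1:**
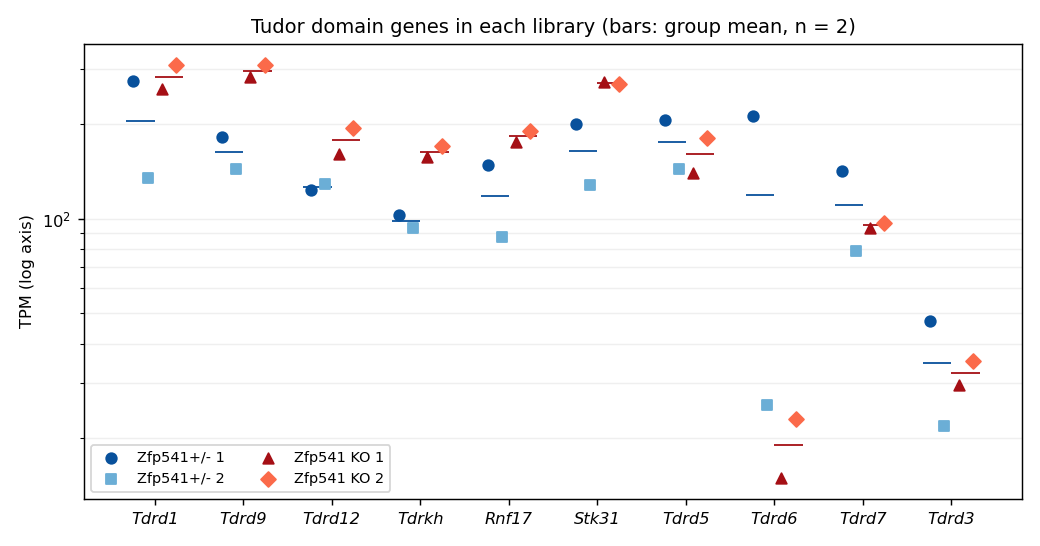
TPM of each Tudor gene on a log axis, 1 point per library and a bar for each group mean (n = 2), ordered by role. The 2 controls lie far apart for *Tdrd6* (212 and 25.5 TPM), whereas *Tdrd9*, *Tdrd12*, *Tdrkh*, *Rnf17* and *Stk31* have both libraries labelled *Zfp541* KO above both controls.

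All 10 Tudor genes were expressed, between the 64.1 and 97.9 percentile of the listed genes of a library, and all 10 were among the 14512 genes tested (mean of at least 1 TPM). In controls the mean levels ran from *Tdrd1* (205 TPM) through *Tdrd5* (175 TPM), *Stk31* (164 TPM), *Tdrd9* (163 TPM), *Tdrd12* (126 TPM), *Tdrd6* (119 TPM), *Rnf17* (118 TPM), *Tdrd7* (110 TPM) and *Tdrkh* (98.0 TPM) to *Tdrd3* (34.6 TPM). Neighbours in this order overlapped between the 2 controls, apart from *Tdrd9* with *Tdrd12* and *Tdrkh* with *Tdrd3*. In the libraries labelled KO the order was *Tdrd9* (296 TPM), *Tdrd1* (283 TPM), *Stk31* (271 TPM), *Rnf17* (183 TPM), *Tdrd12* (178 TPM), *Tdrkh* (164 TPM), *Tdrd5* (160 TPM), *Tdrd7* (95.2 TPM), *Tdrd3* (32.4 TPM) and *Tdrd6* (19.0 TPM). There, the gaps between *Stk31* and *Rnf17* and those on both sides of *Tdrd7* and between *Tdrd3* and *Tdrd6* exceeded the range of the libraries, and the other neighbours overlapped.

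In the comparison between the groups, which asks how loss of *Zfp541* alters the transcriptome of the sorted cells, both libraries labelled KO lay above both controls for 5 Tudor genes, *Tdrd9*, *Tdrkh*, *Stk31*, *Rnf17* and *Tdrd12*, by 1.4- to 1.82-fold, and below both for 1, *Tdrd6*. For the other 4 genes the groups overlapped. Over all genes tested 38.6% lay above both controls and 12.1% below both, so 5 and 1 of 10 are near the background. None of the 10 passed an FDR of 0.05 in limma, with adjusted p between 0.31 and 0.999, and neither did any other gene (0.0%, with 0.31 the smallest adjusted p). At an unadjusted p under 0.05, 3 Tudor genes were higher, *Tdrd9*, *Tdrkh* and *Stk31*, and 0 were lower, where 10.7% of all genes tested were higher and 3.73% lower. The median log2 difference was 0.52 over the 10 genes and 0.28 over all genes tested, of which 69.0% lay above 0. With 2 libraries against 2, an exact two-sided permutation test of a single gene cannot give a p under 0.33.

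These counts depended on which control was kept. Without control 1, both libraries labelled KO lay above the remaining control for 8 Tudor genes and below it for 1, against 65.8% and 25.0% of all genes tested. Without control 2, they lay above it for 5 and below it for 4, *Tdrd3*, *Tdrd5*, *Tdrd6* and *Tdrd7*, against 52.9% and 36.0%. Without library KO 1, 6 genes lay above both controls, *Tdrd1* being added, against 42.9% of all genes tested, and without KO 2, 2 lay below both, *Tdrd5* being added, against 15.7%. In limma, 5 Tudor genes passed the FDR without control 1, *Tdrd1*, *Tdrd9*, *Tdrkh*, *Rnf17* and *Stk31*, when 48.1% of all genes did so. Likewise 5 passed without control 2, *Tdrd6*, *Tdrd7*, *Tdrd9*, *Tdrkh* and *Stk31*, when 28.4% of all genes did so. In these fits the spread comes from the 2 libraries labelled KO alone, and the lone control is assumed to vary as they do. Over all genes tested the median gap on the log2 scale was 0.65 between the controls and 0.16 between the libraries labelled KO.

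**Figure D2:**
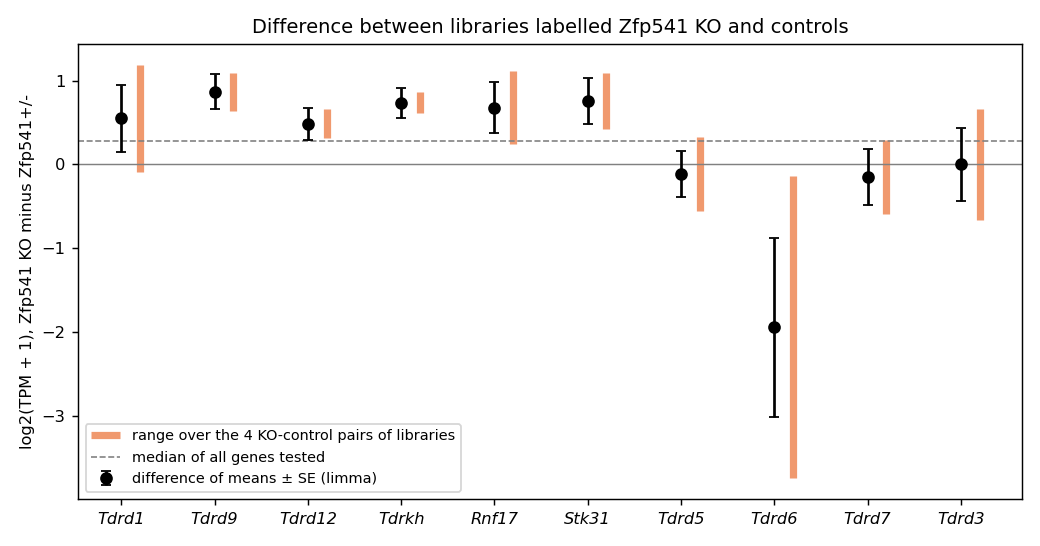
Difference on the log2(TPM + 1) scale between libraries labelled *Zfp541* KO and controls for each Tudor gene, as the difference of means ± SE (black) and as the range over the 4 pairs of 1 KO and 1 control library (orange), with the median of all genes tested (0.28) as a dashed line. *Tdrd9* and *Tdrkh* have short ranges wholly above that line (0.64 to 1.10 and 0.61 to 0.86), and *Tdrd6* runs from -3.75 to -0.14.

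Among the genes of piRNA production, *Tdrd9* had the largest difference. *Tdrd9* (chr12:111971559-112068854, + strand, 36 exons in GENCODE M21, GRCm38) encodes a helicase that works with the nuclear PIWI protein MIWI2. It was at 182 and 144 TPM among controls and at 283 and 310 TPM in those labelled KO, which lay wholly above the controls. On the log2(TPM + 1) scale the difference was 0.87 ± 0.21 (SE, 95% confidence interval 0.30 to 1.43, adjusted p = 0.31 in limma). It was 1.03 without control 1 (adjusted p = 0.0095) and 0.70 without control 2 (adjusted p = 0.0291).

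*Tdrkh* (chr3:94413273-94434668, + strand, 14 exons) encodes a mitochondrial protein needed for trimming the 3′ ends of piRNAs. It was at 103 and 93.2 TPM among controls and at 157 and 170 TPM in those labelled KO, and the groups were well separated. Its log2 difference was 0.73 ± 0.18 (SE, 95% confidence interval 0.25 to 1.22, adjusted p = 0.31 in limma), with 0.80 without control 1 (adjusted p = 0.0114) and 0.66 without control 2 (adjusted p = 0.0298). The controls differed little for this gene, as for *Tdrd12*. In GENCODE M21, an exon of *Tdrkh* shares 2255 nucleotides with *Oaz3* on the opposite strand. The paper does not state whether the libraries keep strand, and without strand, reads there cannot be assigned to one or the other. *Oaz3* itself was listed at 10.2, 9.05, 13.3 and 14.9 TPM in controls 1 and 2 and libraries KO 1 and 2. The value of *Tdrkh* is thus uncertain, to an extent these per-gene values do not give.

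*Tdrd12* (chr7:35469098-35537745, - strand, 30 exons) encodes a second helicase of the pathway, needed for secondary piRNAs. Its controls, at 123 and 129 TPM, were the closest pair among the 10 genes, and the libraries labelled KO were at 161 and 195 TPM. The log2 difference was 0.48 ± 0.19 (SE, 95% confidence interval -0.04 to 1.01, adjusted p = 0.364 in limma), with 0.45 without control 1 (adjusted p = 0.0781) and 0.52 without control 2 (adjusted p = 0.0784). When the TPM were rescaled by median-ratio size factors, the difference was 0.15 and the groups overlapped.

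*Tdrd1* (chr19:56826209-56870012, + strand, 25 exons) encodes a partner of the PIWI protein MILI in the intermitochondrial cement. It was at 275 and 134 TPM among controls and at 258 and 308 TPM in those labelled KO, so that control 1 lay between the latter and control 2 well below both. The log2 difference was 0.55 ± 0.40 (SE, adjusted p = 0.55 in limma), but 1.06 without control 1 and 0.04 without control 2. The pairwise differences ran from -0.09 to 1.19.

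*Stk31* and *Rnf17*, the genes found in meiotic cells, both had libraries labelled KO above both controls. *Stk31* (chr6:49395604-49469501, + strand, 24 exons) encodes a protein with a Tudor and a kinase-like domain that binds MIWI, and was at 200 and 128 TPM among controls and at 274 and 268 TPM in those labelled KO. Both of the latter lay above both controls, and they differed less from each other than for any other of these genes. Its log2 difference was 0.76 ± 0.28 (SE, 95% confidence interval 0.008 to 1.5, adjusted p = 0.343 in limma), with 1.07 without control 1 (adjusted p = 0.00917) and 0.44 without control 2 (adjusted p = 0.0427).

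*Rnf17* (chr14:56402581-56525032, + strand, 37 exons) encodes a RING finger and Tudor protein that forms granules of its own and restrains piRNA amplification in meiotic cells. This gene was at 148 and 87.7 TPM among controls and at 175 and 191 TPM in those labelled KO. The groups did not overlap, though control 1 came near KO 1. The log2 difference was 0.68 ± 0.31 (SE, adjusted p = 0.393 in limma), with 1.05 without control 1 and 0.30 without control 2.

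Of the chromatoid body genes, *Tdrd6* stood out. *Tdrd6* (chr17:43615335-43630299, - strand, 5 exons, of which 1 holds 87.7% of the 7059-nucleotide transcript) encodes a large multi-Tudor scaffold of the chromatoid body. It was at 212 TPM in control 1, 25.5 TPM in control 2, and 14.9 and 23.0 TPM in those labelled KO. Control 1 exceeded control 2 by 8.35-fold and the highest library labelled KO by 9.23-fold, whereas control 2 lay close to KO 2. The log2 difference was -1.94 ± 1.07 (SE, 95% confidence interval -4.83 to 0.95, adjusted p = 0.451 in limma). Without control 1 it was -0.44, and without control 2 it was -3.45, so the size of the difference rests on control 1.

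Control 1 was also far above the other libraries for 3 pachytene markers, *Adam3*, *Ccna1* and *Pou5f2*, picked for mention after their values were seen. *Adam3*, a sperm surface protein gene, was at 283 TPM in control 1, 16.9 TPM in control 2, and 4.99 and 10.8 TPM in those labelled KO. *Ccna1*, the cyclin of the meiotic divisions, was at 48.2, 4.83, 2.20 and 1.80 TPM in the same order. *Pou5f2*, a germ cell POU factor, was at 70.5, 6.31, 0.33 and 0.14 TPM. These are the most extreme of the 11 pachytene markers. The other markers did not all share this profile. *Hspa2*, a heat shock protein gene of spermatocytes, was at 1346, 761, 1000.1 and 1223 TPM, the testis histone gene *Hist1h1t* at 2.55, 2.44, 1.00 and 2.44 TPM, and *Spag6l*, of the sperm axoneme, was lowest in control 1, at 1.83, 3.31, 3.47 and 3.74 TPM. The part of these differences in the *Tdrd6* result was not tested.

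**Figure D3:**
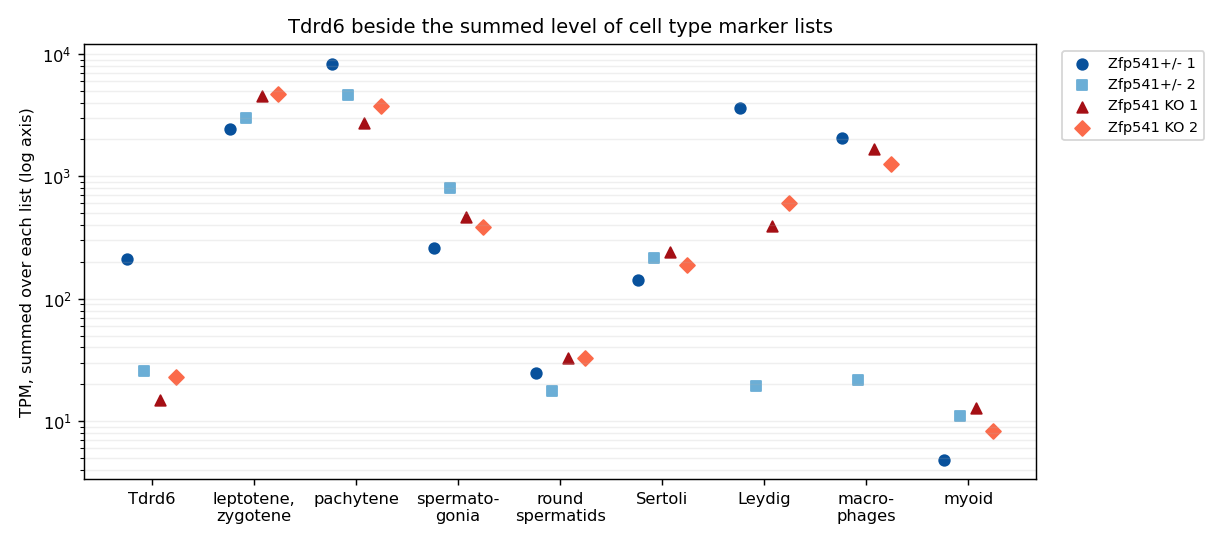
TPM of *Tdrd6* and the summed TPM of 8 cell type marker lists on a log axis, 1 point per library. Control 1 is highest for *Tdrd6* (212 TPM), pachytene (8308 TPM), Leydig (3603 TPM) and macrophage (2045 TPM) markers, and control 2 is lowest for Leydig (19.4 TPM) and macrophage (21.6 TPM) markers.

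*Tdrd5* (chr1:156255296-156303664, - strand, 18 exons) and *Tdrd7* (chr4:45965334-46034761, + strand, 17 exons) encode LOTUS and Tudor domain proteins of the chromatoid body. *Tdrd5* was at 206 and 144 TPM among controls and at 140 and 180 TPM in those labelled KO, and the groups overlapped. Its log2 difference was -0.12 ± 0.27 (SE, 95% confidence interval -0.85 to 0.62, adjusted p = 0.86 in limma), with 0.14 without control 1 and -0.37 without control 2. An antisense transcript, *4930518J20Rik*, shares 176 nucleotides of a *Tdrd5* exon and was not used here. *Tdrd7* was at 142 and 79.1 TPM among controls and at 93.7 and 96.7 TPM in those labelled KO, both of which lay between the 2 controls. Its log2 difference was -0.15 ± 0.33 (SE, adjusted p = 0.847 in limma), and it turned from 0.26 without control 1 to -0.57 without control 2.

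*Tdrd3* (chr14:87416639-87545504, + strand, 12 exons) had the lowest level of the 10 genes in controls. It was at 47.4 and 21.9 TPM there and at 29.4 and 35.3 TPM in those labelled KO, again between the 2 controls. Its log2 difference of -0.0015 ± 0.44 (SE, adjusted p = 0.999 in limma) was the smallest of the 10, and was 0.54 without control 1 and -0.54 without control 2. Its 95% confidence interval, -1.18 to 1.18, takes in the difference seen for *Tdrd9*.

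The spread between the controls exceeded the difference between the group means for 6 of the 10 Tudor genes, and did so for 61.6% of all genes tested. Control 1 was above control 2 for 9 of the 10, against 66.0% of all genes tested, the exception being *Tdrd12*. The median gap over the 10 genes was 0.69 on the log2 scale between the controls and 0.19 between the libraries labelled KO, with 0.59 the largest gap between the latter, for *Tdrd6*. Control 2 was the lowest of the 4 libraries for 7 of the 10 genes. The share of all genes tested was not computed for this count. Both libraries labelled KO lay above control 2 for 8 of the 10 genes, against 65.8% of all genes tested.

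The relative weight of the Tudor genes within a library, which a scaling factor applied to a whole library cannot alter, was also compared. Their TPM summed to 1638 and 988 in controls 1 and 2 and to 1587 and 1777 in the libraries labelled KO, so control 1 lay between the latter. That position rests on *Tdrd6*, since without it the sums were 1426 and 962 among controls and 1572 and 1754 in those labelled KO, which then lay above both controls. *Tdrd9* made up 11.1% and 14.6% of the sum among controls and 17.8% and 17.4% in the libraries labelled KO, and *Stk31* 12.2% and 13.0% against 17.2% and 15.1%. *Rnf17* held 9.04% and 8.88% against 11% and 10.7%, and *Tdrkh* 6.28% and 9.43% against 9.90% and 9.57%. These were the 4 genes with a higher share in both libraries labelled KO.

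A lower share in both libraries labelled KO was found for 4 genes, *Tdrd3*, *Tdrd5*, *Tdrd6* and *Tdrd7*. *Tdrd6* held 13.0% in control 1 and 2.58% in control 2 against 0.94% and 1.3%, and *Tdrd5* 12.6% and 14.6% against 8.84% and 10.2%. *Tdrd7* held 8.65% and 8.00% against 5.90% and 5.44%, a separation that its TPM did not show, and *Tdrd3* 2.89% and 2.21% against 1.86% and 1.98%. The shares of *Tdrd1* (16.8% and 13.6% against 16.3% and 17.3%) and *Tdrd12* (7.53% and 13.1% against 10.1% and 11%) overlapped. Shares of a sum are not independent of one another, since a higher share of some genes lowers that of others. These counts have no background over all genes to be set against, and the shares were not tested.

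**Figure D4:**
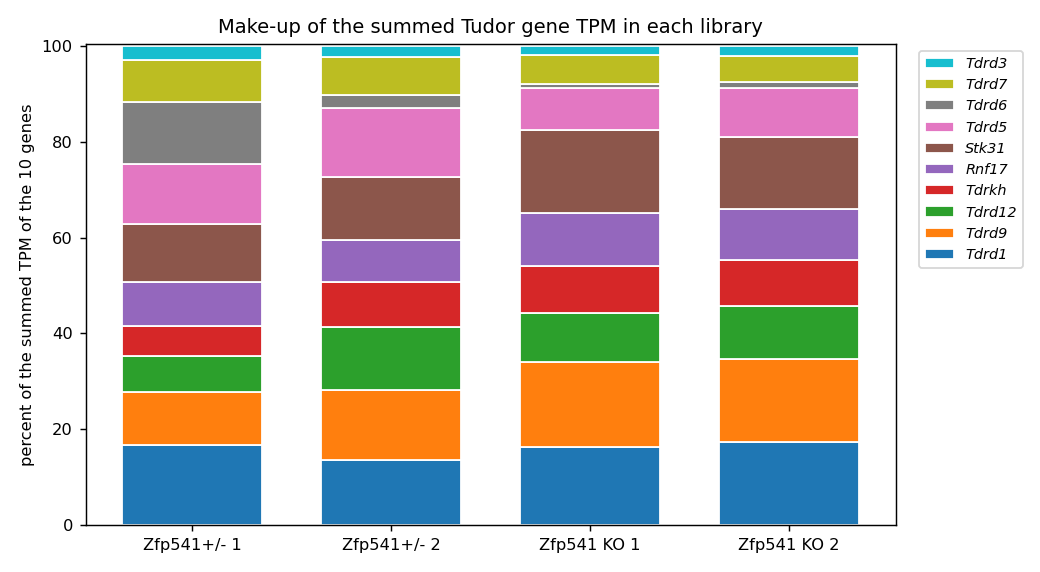
Percent of the summed TPM of the 10 Tudor genes held by each gene, 1 stacked bar per library. *Tdrd6* fills 13.0% of the bar of control 1 and 0.94% to 2.58% of the other 3, and *Tdrd9* takes 17.4% to 17.8% in the libraries labelled *Zfp541* KO against 11.1% and 14.6% in controls.

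The partners of these proteins in the piRNA pathway and in germ granules were described from a list of 28 genes, of which 26 were found and 24 tested, *Piwil4* and *Nanos2* being under the filter. Both libraries labelled KO lay above both controls for 15 of the 24 (38.6% of all genes tested) and below both for 4 (12.1%), and 0 passed the FDR in limma (adjusted p 0.31 to 0.908). At an unadjusted p under 0.05, 9 of the 24 were higher and 2 lower, against 10.7% and 3.73% of all genes tested. The median log2 difference of the list was 0.63. Without control 1, 15 lay above the remaining control and 7 below it, near the shares of all genes tested (65.8% and 25.0%), and 11 passed the FDR higher and 4 lower, where 48.1% of all genes passed in either direction. Without control 2, 18 lay above and 6 below (52.9% and 36.0% of all genes tested), and 11 passed higher and 5 lower, where 28.4% of all genes passed. These fits have the same limit as for the Tudor genes.

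The largest differences among partners were *Dicer1* and *Ago2*, which make and use small RNAs of the microRNA and siRNA pathways, and *Btbd18* and *Tex15*, which act in transcription of piRNA precursors and in piRNA-directed DNA methylation. *Dicer1* was at 25.9 and 24.8 TPM among controls and at 64.2 and 64.7 TPM in those labelled KO, with a log2 difference of 1.31 ± 0.20 (SE, adjusted p = 0.31 in limma). *Ago2* was at 14.9 and 7.29 TPM against 26.3 and 26.2 TPM, a log2 difference of 1.25 ± 0.42 (SE, adjusted p = 0.328 in limma). *Btbd18* was at 19.6 and 27.6 TPM against 57.5 and 53.0 TPM, with 1.21 ± 0.27 (SE, log2, adjusted p = 0.31 in limma). *Tex15* was at 57.5 and 79.0 TPM against 173 and 131 TPM, with 1.15 ± 0.27 (SE, log2, adjusted p = 0.31 in limma). Each of these 4 had both libraries labelled KO above both controls, by the rule that named them. Their log2 differences ran from 0.92 (*Tex15*) to 1.72 (*Ago2*) without control 1. Without control 2 they ran from 0.78 (*Ago2*) to 1.45 (*Btbd18*). These genes were picked for large differences in the same libraries, so these values are not separate support.

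The 4 partners with both libraries labelled KO below both controls were *Ddx25*, *Gtsf1*, *Mael* and *Pld6*, named after their values were seen. *Ddx25*, a helicase gene of the chromatoid body, was at 426 and 349 TPM among controls and at 211 and 264 TPM in those labelled KO, a log2 difference of -0.70 (adjusted p = 0.324, limma). *Mael*, another germ granule component, was at 1194 and 1039 TPM against 719 and 778 TPM, a log2 difference of -0.57 (adjusted p = 0.377, limma). *Gtsf1*, a zinc finger cofactor of PIWI proteins, was at 373 and 394 TPM against 233 and 266 TPM, and *Pld6*, a mitochondrial protein of piRNA processing, at 209 and 128 TPM against 95.3 and 109 TPM. Without control 1, the adjusted p in limma was 0.0607 for *Ddx25*, 0.0368 for *Mael*, 0.0218 for *Gtsf1* and 0.1065 for *Pld6*, and without control 2 it was 0.0412, 0.0345, 0.0451 and 0.0241.

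The PIWI genes themselves, also named with their values known, were not alike. *Piwil2*, which encodes the TDRD1 partner MILI, was at 288 and 299 TPM among controls and at 507 and 551 TPM in those labelled KO, with a log2 difference of 0.85 ± 0.19 (SE, adjusted p = 0.31 in limma, 0.0117 without control 1 and 0.0242 without control 2). *Piwil1*, which encodes the MIWI protein of pachytene piRNAs, was at 706 and 244 TPM among controls and at 238 and 364 TPM in those labelled KO. Its groups overlapped and control 1 was the highest library, as for *Tdrd6*. The log2 difference of *Piwil1* was -0.49 ± 0.59 (SE, adjusted p = 0.715 in limma), turning from 0.27 without control 1 to -1.26 without control 2.

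Proteins with Tudor domains outside the germ granules, mostly chromatin readers, were described from a list of 22 genes, of which 21 were found and tested. Both libraries labelled KO lay above both controls for 14 (38.6% of all genes tested) and below both for 0 (12.1%), the median log2 difference was 0.42, and 0 passed the FDR in limma (adjusted p 0.31 to 0.991). At an unadjusted p under 0.05, 7 of the 21 were higher and 0 lower, against 10.7% and 3.73% of all genes tested. The largest differences were for the Polycomb accessory protein gene *Mtf2* (81.7 and 38.1 against 113 and 134 TPM), *Phf20* (47.9 and 47.1 against 101.0 and 100.3 TPM), *Arid4b* (52.3 and 32.3 against 83.9 and 85.2 TPM) and *Phf20l1* (25.7 and 15.3 against 38.4 and 39.4 TPM). For these 4 genes, picked by the same rule, the log2 difference ran from 1.08 (*Phf20*) to 1.66 (*Mtf2*) without control 1. Without control 2 it ran from 0.58 (*Phf20l1*) to 1.05 (*Phf20*). Without control 1, 11 of the 21 passed the FDR, all higher, near the 48.1% of all genes that passed, and 8 did so without control 2, where 28.4% of all genes passed. The lists were not tested against each other.

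**Figure D5:**
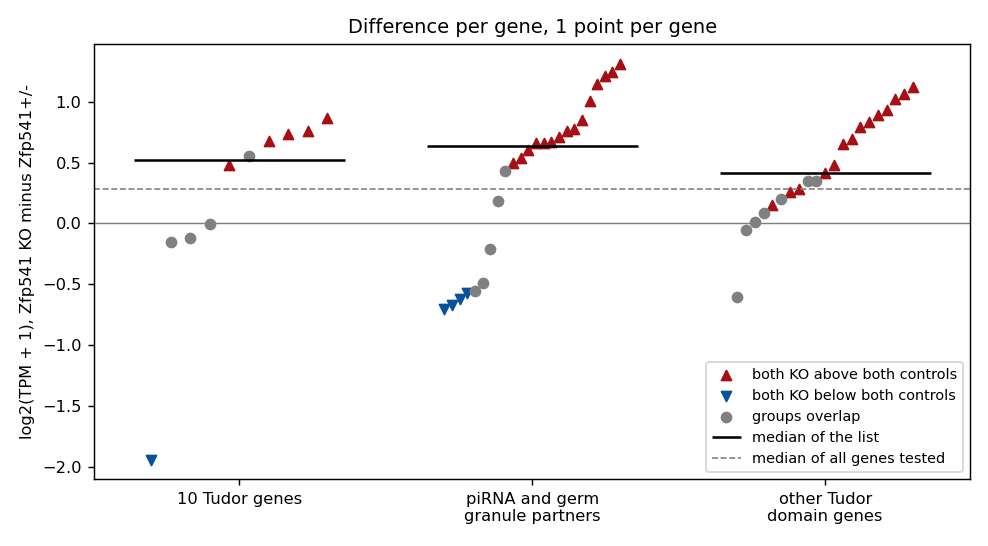
Log2 difference between libraries labelled *Zfp541* KO and controls, 1 point per gene, for the 10 Tudor genes, 24 piRNA and germ granule partners and 21 other Tudor domain genes, with symbols for groups that do or do not overlap. The list medians are 0.52, 0.63 and 0.42, all above the median of all genes tested (0.28, dashed line), and *Tdrd6* is the lowest point at -1.94.

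Median-ratio scaling lowered the log2 difference of all 10 Tudor genes. Quantile normalization lowered it for each of them but *Tdrd9*, at 0.88 in place of 0.87, with *Tdrd3* at -0.31 in place of -0.0015. After median-ratio scaling the median over all genes tested was -0.015 in place of 0.28. Relative to the median of all genes tested on the deposited scale, the log2 difference was 0.58 for *Tdrd9*, 0.47 for *Stk31*, 0.45 for *Tdrkh*, 0.39 for *Rnf17*, 0.27 for *Tdrd1* and 0.20 for *Tdrd12*. It was -0.29 for *Tdrd3*, -0.40 for *Tdrd5*, -0.44 for *Tdrd7* and -2.23 for *Tdrd6*. After that scaling both libraries labelled KO lay above both controls for 4 genes, *Tdrd9*, *Tdrkh*, *Stk31* and *Rnf17*, and below both for 3, *Tdrd5*, *Tdrd6* and *Tdrd7*, where 22.6% of all genes tested lay above both and 22.8% below both.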

How the data were processed

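RNA of cells sorted by GFP as germ cells, from 4 libraries (2 *Zfp541*+/-, 2 labelled *Zfp541* KO), was used, grouped by the labels. The authors trimmed single-end reads with Trim Galore 0.5.0 (cutadapt 1.16), aligned them to UCSC mm10 (GRCm38) with STAR 2.6.0a and estimated expression with RSEM 1.3.1, and deposited TPM per gene. TPM keeps no depth, so its precision is unknown. Of the deposited rows, 27 hold a date where a symbol should be, and were given no name.

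Genes averaging 1 TPM or more were fitted as log2(TPM + 1) by genotype in limma 3.58.1 (R 4.3.3) with a mean-variance trend, two-sided, with Benjamini-Hochberg adjustment at an FDR of 0.05. Such fold changes understate the change of low genes. The script was tested on simulated data. A block for replicate number was an alternative, since nothing states that numbers mark litters. Gene positions came from GENCODE M21 and promoters from RefSeq.

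The members and lists were chosen with earlier results of these data known. Named genes were the 10 members, *Zfp541*, *Rec8* and, from each of the partner and other Tudor lists, the 4 largest differences among genes whose groups did not overlap. Others named were chosen after their values were seen. Alternatives covered the pseudocount, filter, scaling, trend, block and each library left out.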

Additional observations from a re-analysis of the deposited data

How the results depend on the processing

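Of the 10 Tudor genes, 7 kept the sign of their log2 difference in all 13 alternatives. The exceptions were *Tdrd3* (0.0013 with a pseudocount of 0.1 TPM, 0.54 without control 1, -0.54 without control 2, 0.12 without KO 1), *Tdrd5* (0.14 without control 1, -0.37 without control 2, 0.064 without KO 1) and *Tdrd7* (0.26 without control 1, -0.57 without control 2). Leaving out each library in turn gave 0 to 5610 genes past the FDR higher and 0 to 1875 lower, with both nonzero results arising when a control was left out and the spread came from the libraries labelled KO alone. Over the same fits 5 to 8 Tudor genes lay above and 1 to 4 below the controls, and the medians ran from 0.17 to 0.67 for the Tudor genes, 0.50 to 0.77 for the partners and 0.40 to 0.56 for the other Tudor genes. Median-ratio scaling gave medians of 0.18, 0.30 and 0.097 for these lists, -0.015 over all genes tested, and 3 Tudor genes below both controls. Quantile normalization gave 0.47 for the partners, 0.22 for the other Tudor genes and 0.077 over all genes, and a pseudocount of 5 TPM gave 0.49 for the partners. The cause of these shifts was not tested.

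With the replicate block, 0 genes were higher and 0 lower past the FDR. Same-numbered libraries deviated from their group means with a correlation of -0.156 across 14512 genes, which are not independent replicates, and a crossed replicate block, added after the data were seen, called 7 genes higher and 80 lower, 0 of them Tudor genes. With 2 libraries a group and unknown depth, differences smaller than the gap between the controls could not be resolved. Larger ones did not pass the FDR either in the fit of all 4 libraries without a block.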
